A study of Oreochromis niloticus with 18 samples.

Results

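Cerebellum-enriched transcripts of the tilapia (Oreochromis niloticus) are described here as a set of 150 coding sequences, selected on their levels in 3 tissues of the same study. Of 26763 quantified transcripts, 335 had a mean of at least 5 CPM (a transcript's share of its library's counts, scaled to the same total in every library) in the cerebellum and a mean under 5 CPM in the liver, with a lowest cerebellum value at least 2 times the highest thalamus-pituitary value after 0.5 CPM had been added to both. The 150 with the highest ratio of lowest cerebellum to highest thalamus-pituitary value were kept and are called members below. The higher level in the cerebellum is therefore what chose them and is given as a description, with no test. The hormone groups were not used in the choice, although the rule asks for a high lowest cerebellum value and a low highest thalamus-pituitary value. It therefore tends to leave out transcripts that a hormone lowered strongly in the cerebellum or raised strongly in the thalamus-pituitary.

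The cerebellum coordinates movement and, in fish as in mammals, is dominated by small glutamatergic granule cells. Their axons, the parallel fibres, excite Purkinje cells, the inhibitory neurons of the cerebellar cortex, and in teleosts many of the output neurons are eurydendroid cells next to the Purkinje cells. Thyroid hormone is known in mammals for its part in the maturation of granule and Purkinje cells.

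Juveniles of 4 months, sexually undifferentiated, were immersed for 12 h in water with 25 nM T3 (3,5,3′-triiodothyronine) or with 25 nM T2 (3,5-diiodothyronine, which lacks the outer-ring iodine of T3). Controls received no hormone. The hormones had been dissolved in NaOH, and whether controls received NaOH or the 12 h immersion was not given in the sources used here. Each of the 9 groups of tissue and treatment had 2 libraries, and the series has 18. Tissue of 4 fish was pooled for each library of either brain region, which hides the differences between fish, and pooling is not stated for the liver. Pools were separate samples, but whether the groups were kept in separate tanks was not given in the sources used here. With 2 libraries per group the value of each library is given in place of an SD. In pooled tissue, fewer cells of a type and less RNA per cell cannot be told apart.

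The library totals ranged from 1568851 to 6585242 effective counts, so that 1 count stood for 0.152 to 0.637 CPM, and the shallowest library was replicate 1 of the T2 cerebellum. The tissue labels were compared with marker lists. These were chosen with earlier results of these data known and are no independent check. All 10 symbols of the liver list could be paired with transcripts, and their summed level was 58601 to 92887 CPM in the liver libraries, against 21.5 to 93.5 CPM in the 12 brain libraries. FAT2 of the granule cell list and GRID2IP of the Purkinje cell list are members chosen for their level in the cerebellum and cannot check the labels of the brain regions. Of the paired symbols that are not members, CNTN2, an adhesion protein of granule cells, had 52.8 to 87.0 CPM in the cerebellum and 27.9 to 67.8 CPM in the thalamus-pituitary, which overlapped. MTSS1 of the Purkinje cell list had 23.6 to 40.0 CPM in the cerebellum and 8.99 to 13.6 CPM in the thalamus-pituitary.

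The members took 3.48 to 4.08% of all counts in the cerebellum libraries. Their summed level was 35861 and 34838 CPM in the T3 cerebellum, 35407 and 38382 CPM in the T2 cerebellum and 38228 and 40769 CPM in the control cerebellum. In the thalamus-pituitary the sum was 2767 and 2895 CPM with T3, 3826 and 2470 CPM with T2 and 2523 and 2510 CPM in controls. In the 6 liver libraries it was 54.3 to 80.2 CPM. The mean sum of the cerebellum was thus 13.2 times that of the thalamus-pituitary, which in turn was 44.1 times that of the liver. On TMM-scaled library sizes the sums were 1712 to 2595 CPM in the thalamus-pituitary and 82.0 to 209 CPM in the liver, a smaller step. The size of that step thus depends on the scaling, and the rule itself kept the liver mean of each member under 5 CPM. Within the cerebellum both T3 sums lay below both control sums, whereas the T2 and control sums overlapped. The sum is carried by abundant members. The median level in log2(CPM + 0.5) over the members was 6.76 and 6.78 with T3 and 6.66 and 6.77 in controls. This is 1.04 times control, with overlapping values, and the median need not fall on the same member in each library. Member by member, the median log2 change from the control mean was -0.105 and -0.142 in the T3 libraries, the direction of the sum.

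**Figure D1:**
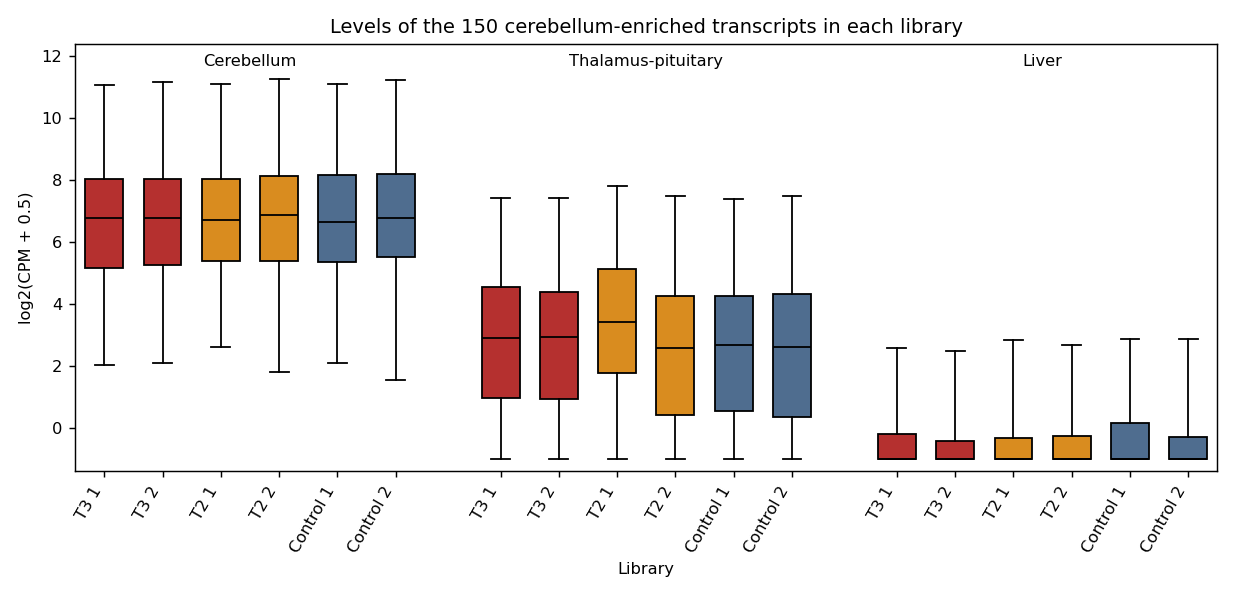
Levels of the 150 members as log2(CPM + 0.5) in each of the 18 libraries, with T3, T2 and control replicates 1 and 2 side by side within each tissue. The box spans the middle 50% of members, the line is the median and the whiskers reach the lowest and highest member. All 6 cerebellum medians lie between 6.66 and 6.86, those of the thalamus-pituitary between 2.56 and 3.40, and all 6 liver medians are at -1, the value of a transcript without counts.

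A few abundant transcripts carried much of the sum. The 16 most abundant members made up 50% of the members' mean cerebellum CPM and the 5 most abundant made up 25.9%. The mean cerebellum level of a member ranged from 5.55 to 2292 CPM with a median of 111 CPM, and 72 members had at least 100 CPM in every cerebellum library. In the thalamus-pituitary the mean level of a member ranged from 0.00540 to 182 CPM with a median of 7.06 CPM. There, 100 members had at least 1 CPM in every library and 1 member, ENSONIT00000021705, rounded to 0 counts in all 6. In the liver 40 members had no count in any of the 6 libraries and 111 stayed under 1 CPM in all of them. The rule fixed the step from cerebellum to thalamus-pituitary in every member and held the liver mean low. All thalamus-pituitary values lay above all liver values in 109 members, and in the other 41 they overlapped. The share over all transcripts was not computed, so this count only describes the list.

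The ratio of the rule ranged from 3.58 to 130 with a median of 6.08. It was at least 5 in 95 members, at least 10 in 43 and at least 20 in 10. The 3 members nearest inside the limit were ENSONIT00000010602, ENSONIT00000001700 and ENSONIT00000001093, with ratios of 3.6, 3.59 and 3.58, and the 3 transcripts nearest outside it were ENSONIT00000025549, ENSONIT00000011075 and ENSONIT00000017643, with 3.56, 3.56 and 3.54. The limit thus falls within a continuous range of values and marks no gap.

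The 10 members with the highest ratio have no gene symbol in the lists held here and are given by their identifiers. ENSONIT00000016566, at the top, had 1572 and 1497 CPM in the T3 cerebellum, 1330 and 1575 CPM in the T2 cerebellum and 1890 and 2045 CPM in the control cerebellum. Its highest value outside the cerebellum was 9.74 CPM in replicate 1 of the T2 thalamus-pituitary, and the other 5 thalamus-pituitary libraries had at most 0.778 CPM. This transcript therefore came close to absence outside the cerebellum, and its ratio of 130 would be 1041 without that single library. ENSONIT00000015018 came second, with 343 and 321 CPM in the T3, 316 and 385 CPM in the T2 and 389 and 377 CPM in the control cerebellum, against at most 3.904 CPM in the thalamus-pituitary. ENSONIT00000015912 had 814 and 803 CPM with T3, 640 and 789 CPM with T2 and 902 and 904 CPM in controls. Its thalamus-pituitary value was 12.0 CPM in replicate 1 of T2 and at most 0.658 CPM in the other 5. The remaining 7 of the 10 (ENSONIT00000006968, ENSONIT00000024871, ENSONIT00000007406, ENSONIT00000007402, ENSONIT00000002166, ENSONIT00000002828 and ENSONIT00000007227) had ratios of 31.3, 27.2, 26.5, 22.2, 22.04, 21.4 and 20.5. Among them, ENSONIT00000007402 had the most counts in the cerebellum of all members, at 2148 and 2283 CPM with T3, 2228 and 2484 CPM with T2 and 2219 and 2388 CPM in controls, and the values of both hormones overlapped those of the controls.

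The other members with the most cerebellum counts were ENSONIT00000008683, FAT2, ENSONIT00000000393 and the top member. ENSONIT00000008683 had 2148 and 1793 CPM with T3, 2035 and 2138 CPM with T2 and 2138 and 2251 CPM in controls. ENSONIT00000000393 had 1758 and 1696 CPM with T3, 1589 and 1737 CPM with T2 and 1676 and 1662 CPM in controls. In CPM neither showed T2 and control values apart. After the scaling used in the tests, ENSONIT00000008683 had both T2 values below both controls.

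The transcripts whose pattern over the 18 libraries was most like that of ENSONIT00000016566 were ENSONIT00000015912, ENSONIT00000020744 and ENSONIT00000006179, with Pearson's r of 0.995, 0.994 and 0.993 among 18360 transcripts compared on log2(CPM + 0.5). All 3 are members. The libraries fall into 3 tissues, so r is set by the step between tissues.

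Only 7 members could be paired with a gene symbol, because the pairs came from the study's own lists of hormone-responsive clusters. These 7 are therefore not a neutral sample for the hormone comparisons. They were FAT2, GRID2IP, UCN3, SNAP25, CACNG7, OPRD1 and INSM1, with ratios of 17.9, 13.7, 11.1, 10.1, 8.17, 5.43 and 4.15. By role they cover cell adhesion, the synapse, peptide signalling and transcription.

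FAT2 (ENSONIT00000005359) encodes a very large atypical cadherin that in rodents is found on granule cells and their parallel fibres. It had 1724 and 1606 CPM in the T3 cerebellum, 1795 and 2076 CPM in the T2 cerebellum and 2136 and 2294 CPM in the control cerebellum. All 4 hormone libraries were below both controls. In the thalamus-pituitary it had 22.6 and 75.6 CPM with T3, 89.2 and 2.66 CPM with T2 and 4.19 and 2.22 CPM in controls, a spread that its cerebellum values did not show.

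GRID2IP (ENSONIT00000021704) encodes delphilin, which in mice binds the delta2 glutamate receptor at parallel fibre synapses on Purkinje cells. Its cerebellum values were 229 and 281 CPM with T3, 238 and 287 CPM with T2 and 243 and 267 CPM in controls, and the 3 groups overlapped. No count was found in the liver. A transcript with the next identifier, ENSONIT00000021705, is also a member and had 14.97 and 9.14 CPM with T3, 11.9 and 22.9 CPM with T2 and 12.9 and 2.44 CPM in controls.

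SNAP25 (ENSONIT00000003702) encodes a SNARE protein of synaptic vesicle fusion. It had 782 and 899 CPM in the T3 cerebellum, 1818 and 1297 CPM in the T2 cerebellum and 1123 and 1904 CPM in the control cerebellum. Both T3 values were below all 4 others, and the T2 and control values overlapped widely. Outside the cerebellum its level was 4.04 to 77.2 CPM in the thalamus-pituitary and at most 0.351 CPM in the liver.

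A second transcript of another gene carries the symbol SNAP25 (ENSONIT00000001609) and is not a member. In the thalamus-pituitary it had 1400 and 1329 CPM with T3, 1804 and 1626 CPM with T2 and 1816 and 2299 CPM in controls, and in the cerebellum 825 and 933 CPM with T3, 1330 and 1049 CPM with T2 and 1096 and 1462 CPM in controls. Its mean in the cerebellum was 0.652 times its mean in the thalamus-pituitary, where the member's was 59.0 times. One SNAP25 transcript was thus found in both brain regions and the other almost only in the cerebellum. Reads that fit both coding sequences were shared out by the authors' quantification, so that part of a low value could belong to the other copy.

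**Figure D2:**
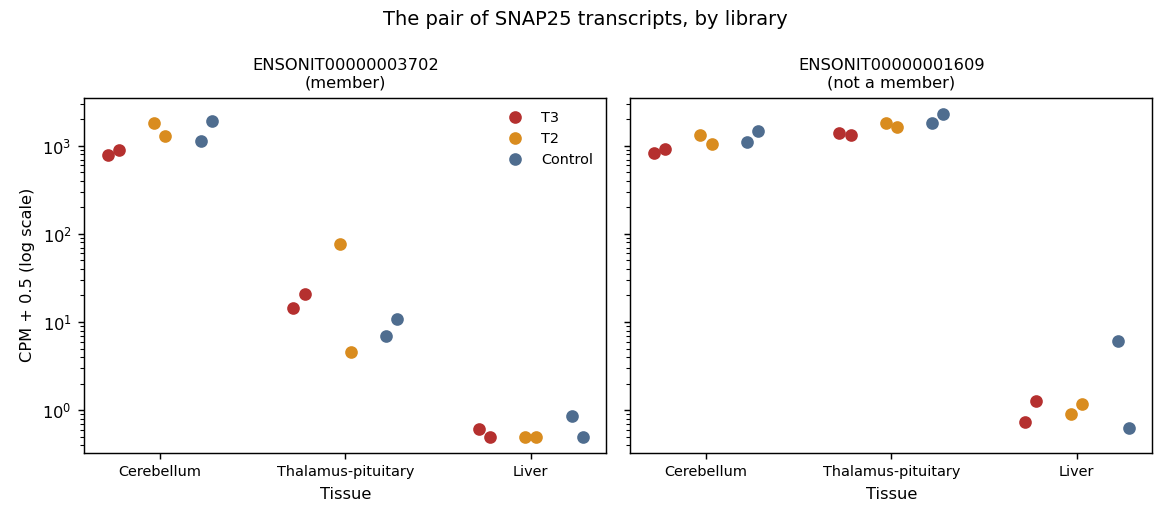
CPM + 0.5 on a log scale of the pair of SNAP25 transcripts in the 18 libraries, by tissue, with T3, T2 and control from left to right and 1 point per library. The member (left panel) stands at 782 to 1904 CPM in the cerebellum and 4.04 to 77.2 CPM in the thalamus-pituitary, whereas the other transcript (right panel) stands at 825 to 1462 CPM and 1329 to 2299 CPM.

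CACNG7 (ENSONIT00000008882) encodes a transmembrane protein of the family that accompanies AMPA-type glutamate receptors. It had 175 and 168 CPM in the T3 cerebellum, 223 and 216 CPM in the T2 cerebellum and 245 and 269 CPM in the control cerebellum. The 3 groups did not overlap, with T3 lowest and control highest.

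OPRD1 (ENSONIT00000009587) encodes the delta opioid receptor, an inhibitory G protein-coupled receptor. It had 50.6 and 45.1 CPM with T3, 40.7 and 56.0 CPM with T2 and 82.9 and 82.9 CPM in controls of the cerebellum. The 4 hormone values lay below both controls, and the T3 and T2 values overlapped. In the thalamus-pituitary it had 4.68 and 5.12 CPM with T3, 7.09 and 4.47 CPM with T2 and 6.81 and 5.62 CPM in controls.

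UCN3 (ENSONIT00000025847) encodes urocortin 3, a peptide of the corticotropin-releasing factor family. It had been placed on the hypothalamus marker list, but its values were 87.4 and 101 CPM in the T3 cerebellum, 56.7 and 61.3 CPM in the T2 cerebellum and 55.6 and 57.5 CPM in the control cerebellum, against at most 4.58 CPM in the thalamus-pituitary. In the cerebellum it was the only one of the 7 whose T3 values lay above both controls. CARTPT, the other paired symbol of that list, had 62.8 CPM in replicate 2 of the T3 cerebellum, where UCN3 was highest, and was listed at 0 in the other 5 cerebellum libraries. Its part in the UCN3 values was not tested. The T2 and control values overlapped.

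INSM1 (ENSONIT00000026584) encodes a zinc-finger repressor known from neuronal and neuroendocrine progenitors of mammals. It had 58.9 and 59.6 CPM with T3, 57.3 and 92.5 CPM with T2 and 91.6 and 93.9 CPM in controls of the cerebellum. Both T3 values were well below both controls, while T2 replicate 1 was near the T3 level and T2 replicate 2 near the control level.

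**Figure D3:**
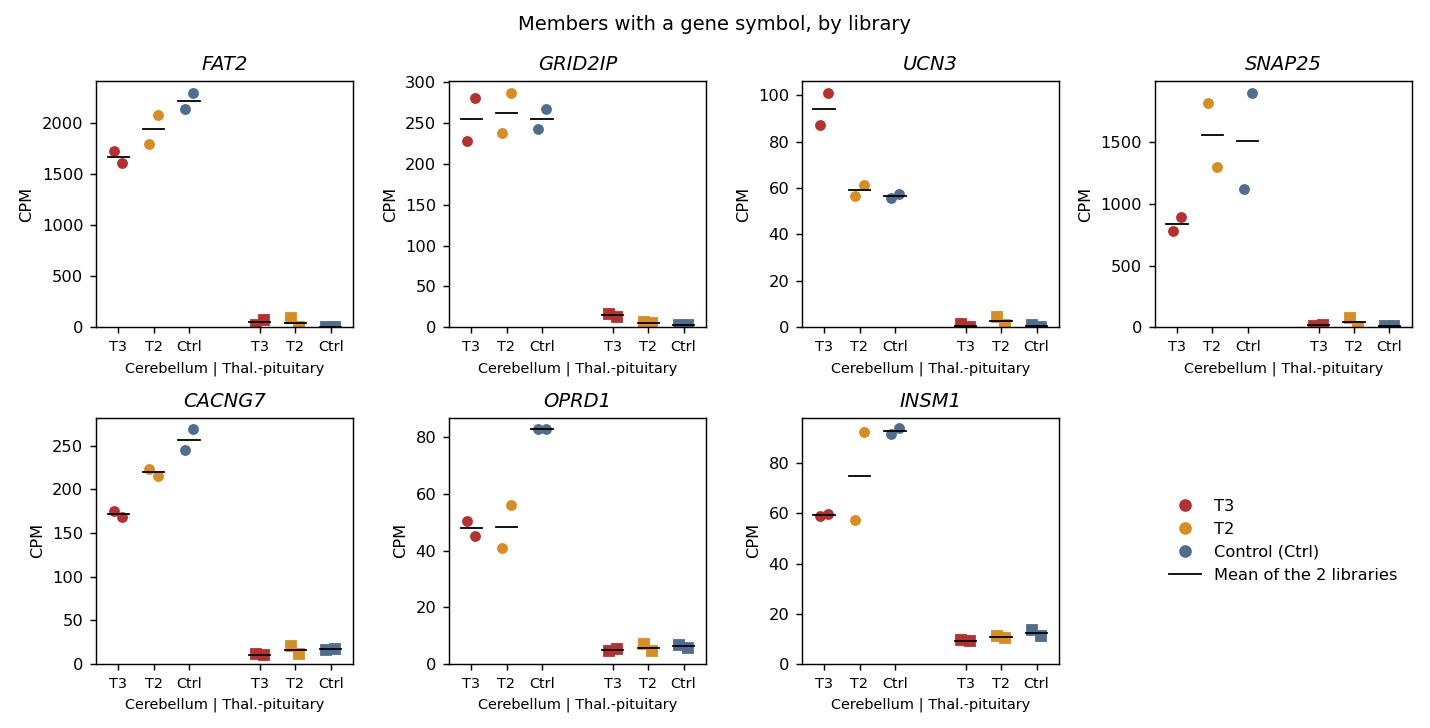
CPM of the 7 members with a gene symbol in the cerebellum (circles) and the thalamus-pituitary (squares), with T3, T2 and control from left to right, 1 point per library and a line at the mean of the 2 libraries. CACNG7 shows 3 separate groups in the cerebellum, UCN3 is highest with T3 at 87.4 and 101 CPM, and GRID2IP overlaps among all 3 groups.

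To ask whether T3 changed the members within the cerebellum, its 2 libraries were compared with the 2 controls by edgeR's quasi-likelihood test over all 15770 transcripts kept by the low-count filter, with Benjamini-Hochberg adjustment. All 150 members were tested. At an adjusted p-value under 0.05 the test called 0 members, against 0.0% of all transcripts. At an unadjusted p-value under 0.05 it gave 35 members (23.3%), against 10.8% of all transcripts. The edgeR exact test called 4 members (OPRD1, INSM1, CACNG7 and UCN3), which is 2.67% against 1.17% of all, and DESeq2 called 9 of the 62 members to which it gave an adjusted p-value (14.5%), against 6.27% of all with one. DESeq2 gave an adjusted p-value to only 1339 transcripts here, since its filter on mean counts removed the rest.

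The members' median log2 fold change with T3 was -0.14, against 0.01 over all tested transcripts. It was below 0 in 106 members and above 0 in 44, and it ranged from -0.96 to 0.73, so that no member differed by more than 2 times. The rule favours a small spread over the cerebellum libraries, so this range is partly set by the choice. In the members 10% lay under -0.50 and 10% over 0.20, against -0.48 and 0.53 over all tested transcripts. The T3 values lay below both controls, without overlap, in 66 members (44.0%), against 21.4% of all transcripts, and above both controls in 14 members (9.33%), against 22.3%. These counts describe the list and are no test of it.

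The members with the smallest p-values and groups apart were OPRD1, INSM1 and UCN3. OPRD1 was at 0.565 times the control level with T3 (log2 fold change -0.82 ± 0.13 SE, unadjusted p = 0.000573, adjusted p = 0.328 in edgeR's quasi-likelihood test). INSM1 was at 0.627 times the control level (-0.67 ± 0.11 SE, adjusted p = 0.328) and UCN3 at 1.64 times (0.71 ± 0.12 SE, adjusted p = 0.328). CACNG7, FAT2 and SNAP25 had log2 fold changes of -0.60, -0.44 and -0.87 with adjusted p-values of 0.328, 0.328 and 0.360 from the same edgeR fit. GRID2IP had -0.03 with a 95% interval of -0.33 to 0.28. None of these passed the adjusted threshold in the main test. The adjusted p-value of OPRD1 ranged from 0.00109 to 0.449 over the settings run.

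The second SNAP25 transcript, tested in the same edgeR fits, had a log2 fold change with T3 of -0.57 ± 0.15 SE in the cerebellum (adjusted p = 0.351) and -0.63 ± 0.14 SE in the thalamus-pituitary (adjusted p = 0.473). Neither passed the threshold.

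Of the top 10 members, ENSONIT00000016566, ENSONIT00000015018, ENSONIT00000015912, ENSONIT00000006968 and ENSONIT00000007227 had both T3 values below both controls in CPM, and ENSONIT00000002828 had both above them, at 97.9 and 86.9 CPM with T3 against 79.9 and 67.4 CPM in controls. ENSONIT00000016566 had a log2 fold change of -0.38 ± 0.09 SE and an adjusted p-value of 0.335 in edgeR. Its adjusted p-value with DESeq2 passed the threshold, as did those of FAT2, CACNG7 and 6 other members, all 9 with negative fold changes. Of the 84 transcripts that DESeq2 called in all, only 21 had positive fold changes, so most of its calls were negative. ENSONIT00000025571, which had 963 and 1042 CPM with T3, 894 and 1175 CPM with T2 and 1276 and 1394 CPM in controls, was 1 of these 9 members. ENSONIT00000023491, at 60.2 and 72.8 CPM with T3, 55.5 and 60.2 CPM with T2 and 35.4 and 44.6 CPM in controls, had all 4 hormone values above both controls. The last 2 identifiers lie outside the naming rule for this comparison and were picked after their values were seen.

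T2 was set against control in the cerebellum in the same way. Of the 150 members, all tested with 15271 transcripts in all, edgeR's quasi-likelihood test called 0 at an adjusted p-value under 0.05, against 0.0% of all transcripts, and 15 had an unadjusted p-value under 0.05, against 4.96%. By the exact test 0 members were called against 0.308% of all, and DESeq2 called 0 of 150 against 0.101%. The median log2 fold change was -0.08 in the members and 0.00 over all transcripts. It was below 0 in 99 members and above 0 in 51. T2 values lay below both controls in 47 members (31.3%), against 17.5% of all transcripts, and above both controls in 12 members (8.0%), against 17.5% of all. Replicate 1 of the T2 cerebellum, the shallowest library, was the lowest of the 6 in 52 members, and without it the median was -0.03.

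OPRD1 had the smallest p-value with T2, at 0.597 times the control level (log2 fold change -0.74 ± 0.18 SE, adjusted p = 0.935 in edgeR's quasi-likelihood test). ENSONIT00000020881 had 7.91 and 8.61 CPM with T2 against 16.2 and 20.4 CPM in controls, and a log2 fold change of -1.15 ± 0.30 SE (edgeR adjusted p = 0.935). ENSONIT00000007227 had 21.3 and 27.3 CPM with T2 against 41.5 and 43.1 CPM in controls, and a log2 fold change of -0.78 ± 0.20 SE (edgeR adjusted p = 0.935). Among the symbols, FAT2 and CACNG7 also had both T2 values below both controls, with log2 fold changes of -0.20 and -0.23 and 95% intervals of -0.49 to 0.09 and -0.51 to 0.04. For UCN3, GRID2IP, SNAP25 and INSM1 the T2 and control values overlapped.

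**Figure D4:**
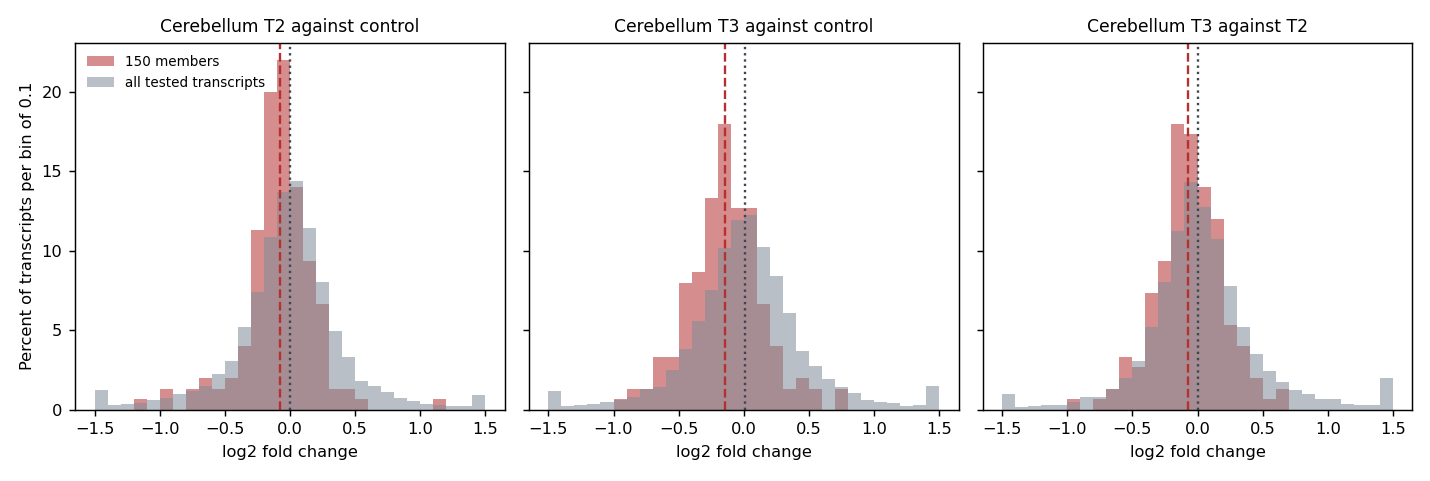
Distribution of log2 fold changes in the cerebellum for T2 against control, T3 against control and T3 against T2, as the percent of transcripts in bins of 0.1, for the 150 members (red) and all tested transcripts (grey). Values beyond 1.5 in either direction stand in the outermost bins. The dashed line is the members' median, at -0.08, -0.14 and -0.07, and the dotted line the median of all transcripts, at 0.00, 0.01 and 0.01.

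Some marker lists of other cell types and states also lay apart between the groups in the same cerebellum libraries. Their symbols too were paired through the study's lists of hormone-responsive clusters, and the lists were chosen with earlier results known. They are therefore not a neutral sample for the hormone comparisons, here or in the thalamus-pituitary. The summed level of the blood list (5 of 6 symbols paired) was 3412 and 2980 CPM with T3, 3748 and 3410 CPM with T2 and 6915 and 5570 CPM in controls. The sum of the immediate-early genes (7 of 7 symbols) was 283 and 431 CPM with T3, 420 and 1043 CPM with T2 and 970 and 1936 CPM in controls, so that T2 and control overlapped. EGR1 made up most of it in controls, and JUN, with 60.4 and 54.5 CPM with T3, 63.8 and 61.5 CPM with T2 and 51.9 and 50.7 CPM in controls, went the other way. The sum of the proliferation list (9 of 9 symbols) was 350 and 275 CPM with T3, 345 and 289 CPM with T2 and 585 and 653 CPM in controls. The astroglia list (6 of 13 symbols) had 2080 and 1926 CPM with T3, 2232 and 2056 CPM with T2 and 2608 and 2447 CPM in controls. SLC1A2 made up most of it, at 1820 and 1744 CPM in controls. SLC1A3, with 46.6 and 62.6 CPM with T3, 53.4 and 49.1 CPM with T2 and 48.5 and 43.3 CPM in controls, was not lower with either hormone. The oligodendrocyte list (2 of 10 symbols) had 65.0 and 57.7 CPM with T3, 54.2 and 57.2 CPM with T2 and 72.7 and 93.7 CPM in controls. None of these 5 lists holds a member, and their part in the members' values was not tested.

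T3 and T2 were compared directly at the same dose and time over the 15680 transcripts kept. Of the 150 members, edgeR's quasi-likelihood test called 0 at an adjusted p-value under 0.05, against 0.0128% of all transcripts, and 18 (12.0%) had an unadjusted p-value under 0.05, against 6.24%. The edgeR exact test called 1 member, SNAP25 (0.667%), against 0.733% of all, and DESeq2 called SNAP25 alone (0.667%), against 0.257%. The members' median log2 fold change was -0.07, against 0.01 over all transcripts, and it was 0.05 when replicate 2 of T2 was left out. T3 values lay below both T2 values in 40 members (26.7%), against 18.8% of all, and above both in 14 (9.33%), against 19.3%.

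SNAP25 had the largest difference between the hormones among the named members, at 782 and 899 CPM with T3 against 1818 and 1297 CPM with T2. Its log2 fold change was -0.91 with a 95% interval of -1.32 to -0.51, and its adjusted p-value was 0.547 in edgeR's quasi-likelihood test and 1.83e-06 in DESeq2, with a range of 1.83e-06 to 0.998 over the alternatives. UCN3 was higher with T3 than with T2 by 0.64 on the log2 scale (95% interval 0.30 to 0.97, edgeR adjusted p = 0.651) and CACNG7 had a log2 fold change of -0.38 (95% interval -0.62 to -0.13, edgeR adjusted p = 0.684). OPRD1 did not differ between the hormones beyond the spread of its libraries, with a log2 fold change of -0.08 and a 95% interval of -0.56 to 0.40, an interval that holds differences in either direction. For GRID2IP the interval was -0.44 to 0.29, for FAT2 -0.52 to 0.03 and for INSM1 -0.97 to 0.15. The 3 cerebellum comparisons share libraries and are not independent of each other.

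The rule favours a small spread over the 6 cerebellum libraries, so the spread of the members is given as a description. The highest value was under 1.5 times the lowest in 86 members and more than 2 times in 20, with a median of 1.41. The steadiest was ENSONIT00000018637 at 157 to 170 CPM. The most variable were ENSONIT00000021705, the neighbour of GRID2IP, with a highest value 9.41 times the lowest, and ENSONIT00000002829, with 6.36 times. Replicate 2 of the control had the highest value of 62 members and replicate 1 of T2 the lowest of 52.

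ENSONIT00000021705, ENSONIT00000002829 and ENSONIT00000020743, the members with the widest spread, had neighbours with consecutive identifiers among the members. ENSONIT00000023710 and ENSONIT00000004330, next in order, had none. Most of the 20 members with a highest value more than 2 times the lowest had no such neighbour. The 150 members hold 11 pairs with consecutive identifiers, 22 members in all, and in the study's lists 53 of 163 such pairs belong to 1 gene. Where a pair belongs to 1 gene, reads are divided between its transcripts by estimation. In the pair of ENSONIT00000002828 and ENSONIT00000002829 the summed level had a highest value 1.39 times the lowest, against 1.81 and 6.36 times for the single transcripts. For GRID2IP and ENSONIT00000021705 the sum had 1.27 times, against 1.26 and 9.41 times. In ENSONIT00000020743 and ENSONIT00000020744 the sum had 1.49 times, against 3.07 and 1.33 times. Over the 11 pairs the sum was steadier than both of its transcripts in 6 and not in 5. Whether these pairs are 1 gene each was not tested.

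In the thalamus-pituitary, where the members were low by choice, replicate 1 of T2 stood apart. It had the highest value of the 6 libraries for 98 members (65.3%), against 16.7% of the 18200 transcripts with a mean of at least 1 CPM. The members' median log2 ratio to the other 5 libraries was 0.53 in it, against 0.02 over all those transcripts, and 36 members were more than 2 times above the median of the other 5. The T3 libraries had 10 and 17 such members, the controls 1 and 0, and the other T2 library 0. In replicate 1 of T2 the excess had a median of 3.64% of a member's mean cerebellum level, with 10% of members under -0.58% and 10% over 6.77%. For the 2 T3 libraries the median excess was 0.224% and 0.520%, and for the other T2 library and the 2 controls it was between -0.741% and -0.457%. Whether cerebellum tissue was present in this or any other thalamus-pituitary library was not tested. Without replicate 1 of T2, 352 transcripts passed the rule, the members' median ratio was 6.94 in place of 6.08, and 33 members in place of 10 reached a ratio of 20.

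**Figure D5:**
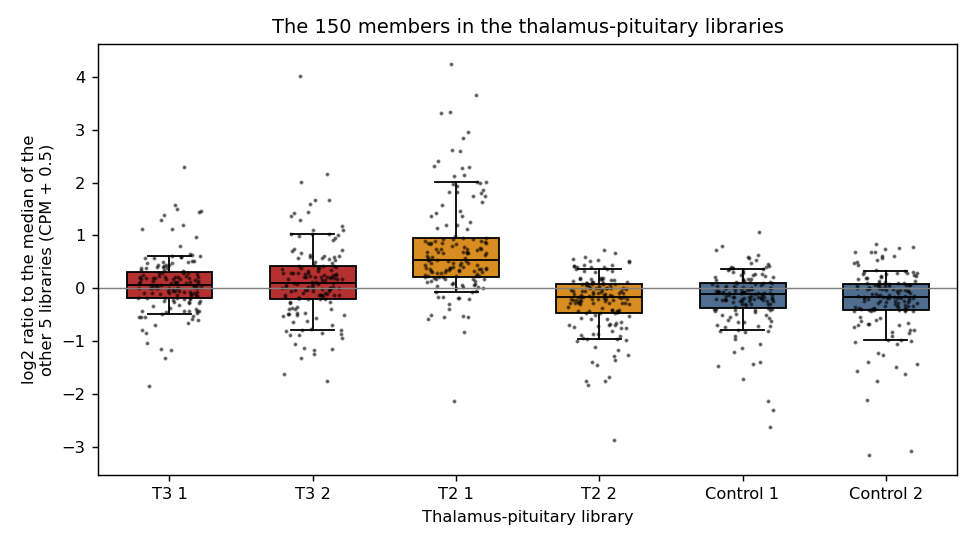
Log2 ratio of each member's value in a thalamus-pituitary library to the median of the other 5 libraries (CPM + 0.5), for T3, T2 and control replicates 1 and 2. Points are members, the box spans the middle 50%, the line is the median and the whiskers reach from 10 to 90%. Replicate 1 of T2 has a median of 0.53, and the other medians lie between -0.16 and 0.09.

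The comparison of T3 with control in the thalamus-pituitary could be made for 109 members and gave 0 called by edgeR's quasi-likelihood test, against 0.00588% of all 16996 transcripts. At an unadjusted p-value under 0.05 there were 15 members (13.8%), against 8.84%. The edgeR exact test called 3 members (FAT2, GRID2IP and ENSONIT00000005808, 2.75%), against 0.747% of all, and DESeq2 called 0, but gave an adjusted p-value to 1 member only, against 4.63% of its 1339 transcripts. The T3 values lay above both controls in 36 members (33.0%), against 20.8% of all, and below both in 12, against 20.7%. In the same libraries the blood list had 2773 and 2961 CPM with T3 against 7310 and 4204 CPM in controls, the immediate-early genes 382 and 549 CPM with T3 against 625 and 881 CPM in controls, and the proliferation list 91.2 and 96.4 CPM with T3 against 148 and 145 CPM in controls, and their part in the members' values was not tested. The members' median log2 fold change was 0.08 and that of all transcripts 0.00. GRID2IP had 16.2 and 12.8 CPM with T3 against 2.54 and 2.69 CPM in controls, and a log2 fold change of 2.46 ± 0.35 SE with an adjusted p-value of 0.293 in edgeR. FAT2 had 22.6 and 75.6 CPM with T3 against 4.19 and 2.22 CPM in controls, and 3.80 ± 0.66 SE with an adjusted p-value of 0.380.

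The comparison of T2 with control in the thalamus-pituitary includes the library that stood apart. Of 104 members tested, edgeR's quasi-likelihood test called 0, against 0.0% of 16788 transcripts, and 9 (8.65%) had an unadjusted p-value under 0.05, against 6.16%. The edgeR exact test called 0 members against 0.429% of all, and DESeq2 called 0 of 146 against 0.1%. T2 values lay above both controls in 26 members (25.0%), against 19.5% of all, and below both in 6 (5.77%), against 18.7%. In these libraries the blood list had 3018 and 3749 CPM with T2 against 7310 and 4204 CPM in controls. The proliferation list had 100 and 91.3 CPM with T2 against 148 and 145 CPM in controls. The immediate-early genes overlapped, at 356 and 704 CPM with T2 against 625 and 881 CPM in controls. The part of these lists in the members' values was not tested. The members' median log2 fold change was 0.22, and it was -0.03 without replicate 1 of T2 and 0.48 without replicate 2. Without replicate 2 the test called FAT2 and SNAP25, whose values in replicate 1 were 89.2 and 77.2 CPM. That fit has a single T2 library, the one that stood apart, which is assumed to vary like the controls.

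In the liver too few members were detected for a description of the list. With T3, 16 members could be tested, of which edgeR's quasi-likelihood test called 0, against 13.6% of 11556 transcripts, and 1 had an unadjusted p-value under 0.05, against 33.6%. The edgeR exact test called 1 member, against 22.5%, and DESeq2 called 0 of 6, against 16.2%. With T2, 10 members could be tested, of which the quasi-likelihood test called 0, against 21.0% of 10905 transcripts, and 3 had an unadjusted p-value under 0.05, against 39.1%. Its exact test called 3 members, against 30.4%, and DESeq2 called 0 of 7, against 19.1%. The 3 members with the highest single liver value were ENSONIT00000008824, ENSONIT00000007896 and ENSONIT00000024459. ENSONIT00000008824 had 2.40 and 3.09 CPM with T3, 2.84 and 3.33 CPM with T2 and 5.03 and 6.74 CPM in controls. ENSONIT00000024459 had 5.45 and 5.09 CPM with T3, 6.54 and 5.85 CPM with T2 and 1.65 and 2.92 CPM in controls. By library total alone, as in CPM, the median log2 fold change over all tested liver transcripts was 0.54 with T3 and 0.61 with T2. In edgeR's quasi-likelihood test ENSONIT00000024459 had 0.60 with T3 (adjusted p = 0.447) and 0.76 with T2 (adjusted p = 0.332). For ENSONIT00000008824 the same test gave -1.69 with T3 (adjusted p = 0.0501) and -1.55 with T2 (adjusted p = 0.0625). ENSONIT00000007896 reached 6.71 CPM in 1 control library and 0.932 to 3.16 CPM in the other 5.

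The 3 members with the highest single value in the thalamus-pituitary were ENSONIT00000001093, ENSONIT00000008683 and ENSONIT00000025571. ENSONIT00000001093 had 169 and 171 CPM with T3, 223 and 181 CPM with T2 and 168 and 178 CPM in controls there, and 802 to 986 CPM in the cerebellum. ENSONIT00000008683 had 102 and 93.3 CPM with T3, 172 and 98.1 CPM with T2 and 87.6 and 106 CPM in controls, with replicate 1 of T2 the highest. ENSONIT00000025571 had 131 to 146 CPM over the 6 libraries, so that replicate 1 of T2, at 140 CPM, was not its highest.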

How the data were processed

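RNA was sequenced on an Illumina GAIIx. The authors mapped cleaned reads with Bowtie 1.1.2 to tilapia coding sequences and quantified them with eXpress. The estimated counts (eXpress effective counts) per transcript that the authors deposited for each library had no normalization between libraries. Their edgeR tables (log2 fold change, log2 CPM, p-value, false discovery rate) were not used. The members, marker lists and naming rule were chosen with earlier results of these data known. Counts were rounded, filtered with filterByExpr, scaled by TMM and tested with edgeR 4.0.16 in R 4.3.3, each hormone against control in the 4 libraries of a tissue. DESeq2 1.42.0 and edgeR's exact test were among the alternatives. The functions were tested on simulated data. An SE is the log2 fold change over the square root of its F statistic, and a 95% interval uses the fit's total degrees of freedom. CPM divide by the file total. The groups called apart used TMM-scaled CPM. Replicates differed by more than counting noise, with a chi-square of 4.9 or more per transcript in every group. A p-value sets the difference between groups against the spread between the 2 samples of a group. That spread is partly estimated from the other transcripts, and the brain samples are pools of 4 fish.

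Named are the 10 members of highest ratio, all with a symbol, the 3 of smallest p-value with groups apart in each cerebellum comparison, the 5 with most cerebellum counts, 3 on each side of the limit, the 3 highest in the liver and in the thalamus-pituitary, and the 3 transcripts most like the top member. Symbols were paired through the study's supplementary cluster lists (1658 transcripts). Of 42644 RefSeq genes none carried an Ensembl identifier, so no sequence or position is given. The summed level of the granule cell list is not reported here.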

Additional observations from a re-analysis of the deposited data

Results flagged for a closer look

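FAT2, SNAP25 and the members' sum lay on opposite sides of the controls with T3 in the cerebellum and the thalamus-pituitary, in both libraries each time, and the difference between tissues was not tested. FAT2 had 0.752 times its control mean CPM in the cerebellum and 15.3 times in the thalamus-pituitary. SNAP25 had 0.556 times in the cerebellum and 2.05 times in the thalamus-pituitary. The summed level of the members had 0.895 times in the cerebellum and 1.12 times in the thalamus-pituitary. By the median level in log2(CPM + 0.5) it was 1.04 times in the cerebellum, so that the opposite direction does not hold for that summary. The median of the members' own log2 changes with T3 was -0.105 and -0.142 in the cerebellum libraries. In the thalamus-pituitary libraries it was 0.166 and 0.130. In the thalamus-pituitary all 3 rest on small levels beside those of the cerebellum.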

How the results depend on the processing

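Of the counts of members called, those in the cerebellum became 1 with T2 without a low-count filter and 9 with T3 by DESeq2. With T3 they became 4 by the exact test with or without the filter and 7 without a filter. In T3 against T2 they became 1 by each of these 4 settings. Over all transcripts, the unfiltered quasi-likelihood fit called 156 of 22450 with T2, 194 of 22795 with T3 and 106 of 22668 in T3 against T2. The unfiltered exact test called 142 of 22795 transcripts with T3 and 81 of 22668 in T3 against T2. In the thalamus-pituitary the counts of members called became 3 with T3 by either exact test and 1 without a filter. Over all transcripts there, the unfiltered exact test called 95 of 23336 and the unfiltered quasi-likelihood fit 20 of 23336. In the liver the counts of members called became 1 with T2 when all 6 libraries were fitted and 3 with T2 by the filtered exact test. With T3 they became 1 by either exact test, with all 6 libraries or with RLE size factors. Over all liver transcripts, the fit of all 6 libraries called 3309 of 12029 with T2 and 2140 of 12029 with T3. With T3 the unfiltered exact test called 2007 of 19858 and the fit with RLE size factors 1550 of 11556. Leaving out 1 library gave 0 members in each cerebellum comparison and with T3 in the thalamus-pituitary, 0 to 2 with T2 in the thalamus-pituitary, 0 with T2 and 0 to 1 with T3 in the liver (1 without control replicate 1). The members' median log2 fold change then ranged from -0.156 to -0.029 with T2, from -0.200 to -0.106 with T3 and from -0.109 to 0.047 for T3 against T2 in the cerebellum. The rule passed 836 transcripts with a ratio of means, 708 with control libraries alone, and 332 to 364 with 1 library left out. By the median level in log2(CPM + 0.5) in place of the sum, the cerebellum stood at 15 times the thalamus-pituitary and T3 at 1.04 times control, where the sums gave 13.2 and 0.895. The median of the members' own log2 changes with T3 was below 0, like the change of the sum. Of 200 alternative values for 15 fold changes in the cerebellum (members with a symbol or the smallest p-values, where the groups did not overlap), 20 passed the threshold and 0 turned sign, which the lack of overlap favours. Where groups overlapped, fold changes did turn: T3 against T2 ranged from -0.27 to 0.21 for OPRD1, from -0.69 to 0.03 for INSM1 and from -0.22 to 0.09 for GRID2IP, and T2 in the thalamus-pituitary from -0.31 to 4.71 for FAT2 and from -1.06 to 3.16 for SNAP25. The cause of these shifts was not tested.

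Replicate numbers are shared but no source pairs them. With the number as a replicate block 0 members were called in each of the 7 comparisons. The correlation of deviations was -0.21 for T2 against control in the cerebellum, and a crossed pairing, added after seeing the data, called 0 members there.

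Depth limits the low values, since 1 count was 0.152 to 0.637 CPM. With 2 libraries per group an exact permutation test of a single value cannot reach the threshold.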
